A study of Mus musculus with 2 samples.

Results

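Mouse autosomes carry their centromere at one end, so that each has a single long arm whose far end runs through a subtelomeric zone to the telomere. The regions described here were methylated DNA peaks whose start lay within 5 Mb of that distal end on chromosomes 1 to 19. The end was taken as the highest peak end of the chromosome over the 4 deposited peak tables, so distances run from the last peak and not from the telomere repeats. The rule used position alone. It gave 8178 peaks of 141527 on these chromosomes (5.78%), or 5.55% of the 147297 peaks in all: 2973 of V/SVZ over control, 2788 of CP over control, 1338 of V/SVZ over CP and 1079 of CP over V/SVZ. In 10 of the 19 chromosomes the last V/SVZ and CP control peaks ended within 1000 bp of each other, with a median difference of 227 bp and a largest of 170499 bp on chromosome 17.

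ICR mouse embryos were taken at embryonic day 16, and their cerebral wall was dissected by hand into the V/SVZ, which holds the ventricular zone with its neuronal progenitors, and the cortical plate (CP), where neurons differentiate. No genetic change or treatment was recorded, and both tissues are mixtures of cells. Methylated fragments were pulled down with a methyl-binding protein domain and sequenced (MBD-seq), with 1 library per tissue. There was thus no replicate error, no p is given for any difference, and all intervals are 95% intervals that cover counting error only. Tags are aligned reads within a peak, a control peak is one called against a control that the sources used here do not describe, and a direct peak is one called in one tissue against the other. Library totals were not given, so CP to V/SVZ tag ratios are not scaled by depth, and their median at shared peaks over the rest of the same chromosomes, 1.82, is the value to read them against.

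DNA methylation in mammals sits mostly on the cytosine of CpG pairs and is copied after replication by a maintenance enzyme. Chromosome ends in mammals are known for high recombination, high GC content and dense genes, and the DNA next to telomere repeats is known to be methylated in somatic cells. Promoters of germ cell genes are a textbook class that somatic tissues, the brain included, keep methylated. The methyl-binding capture favours stretches with many methylated CpG pairs, so a stretch with few such pairs can be methylated and give no peak.

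Promoter peaks were few among the subtelomeric peaks, and those shared by the tissues had a median CP to V/SVZ tag ratio of 2.26. The 4 promoters below belong to genes with a promoter control peak in both tissues, and show the CpG pairs available for capture there: those of 2 germ cell genes, a keratin gene within a keratin cluster, and a cytokine receptor gene close to a chromosome end. Sequences are from RefSeq, build GRCm38.p6, 5' to 3', from 250 bases before to 50 after the gene's start, and capitals mark each CG. Sycp2 lies at chr2:178407609-178407908 on the minus strand, Tdrd1 at chr19:56825959-56826258 on the plus strand, Krt72 at chr15:101786471-101786770 on the minus strand and Csf2ra at chr19:61228369-61228668 on the minus strand. Peak coordinates elsewhere in the text are in mm9 and cannot be set against these.
Sycp2: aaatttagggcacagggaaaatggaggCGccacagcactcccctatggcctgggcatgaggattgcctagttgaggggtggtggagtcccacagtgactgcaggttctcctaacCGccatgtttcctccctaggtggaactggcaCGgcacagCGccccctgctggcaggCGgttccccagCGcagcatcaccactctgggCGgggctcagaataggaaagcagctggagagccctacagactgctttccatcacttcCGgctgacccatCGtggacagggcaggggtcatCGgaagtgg
Tdrd1: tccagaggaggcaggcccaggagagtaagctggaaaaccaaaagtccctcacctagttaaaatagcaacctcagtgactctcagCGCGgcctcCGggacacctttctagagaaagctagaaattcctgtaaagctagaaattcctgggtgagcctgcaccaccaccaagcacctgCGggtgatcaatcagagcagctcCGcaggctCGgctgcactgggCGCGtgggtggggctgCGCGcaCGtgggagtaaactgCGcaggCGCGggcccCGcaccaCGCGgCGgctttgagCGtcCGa
Krt72: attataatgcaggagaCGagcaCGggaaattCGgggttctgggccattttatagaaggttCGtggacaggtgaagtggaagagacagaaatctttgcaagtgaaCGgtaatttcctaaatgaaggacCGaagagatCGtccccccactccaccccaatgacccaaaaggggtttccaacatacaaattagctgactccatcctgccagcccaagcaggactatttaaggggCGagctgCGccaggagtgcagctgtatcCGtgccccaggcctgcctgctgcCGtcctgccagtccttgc
Csf2ra: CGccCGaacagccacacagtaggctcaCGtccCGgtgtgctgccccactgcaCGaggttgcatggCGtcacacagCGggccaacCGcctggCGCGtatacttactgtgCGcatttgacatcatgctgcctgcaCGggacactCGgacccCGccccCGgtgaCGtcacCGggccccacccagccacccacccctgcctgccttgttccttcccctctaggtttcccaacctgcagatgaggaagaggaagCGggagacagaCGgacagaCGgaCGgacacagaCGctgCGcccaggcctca
The Sycp2 and Krt72 windows hold 10 and 11 CG pairs, the Tdrd1 and Csf2ra windows 20 and 23. The Tdrd1 window is 1 of 3 that RefSeq lists for this gene, and which of them the peak covers was not determined. The median over all 32851 RefSeq mouse promoters of this length was 7. Of the 57 genes with a subtelomeric promoter peak in either tissue, 46 matched the promoter table, with 64 promoters and a median of 12.5 CG pairs. Of these promoters 65.6% held 10 or more, against 43.5% of all promoters. The genes were picked by a capture peak, and capture favours CpG pairs. Promoters with a peak elsewhere on the chromosomes were not counted, so a trait of chromosome ends cannot be told from one of captured promoters. A peak need not cover each of the 64 promoters. The telomere repeat unit TTAGGG, searched on both strands, was present in 8 of the 64 promoters (12.5%), the Sycp2 window among them, and in 10.6% of all promoters.

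Methylated regions were denser near chromosome ends than in the rest of the same chromosomes, in both tissues and in both direct lists. The V/SVZ control list had 31.3 peaks per Mb in the subtelomeric windows and 20.6 in the rest, a ratio of 1.52 (exact 95% interval 1.47 to 1.58). The CP control list had 29.4 and 20.8 per Mb, a ratio of 1.41 (1.36 to 1.47). Direct peaks followed the same pattern, with 14.1 against 8.76 per Mb for V/SVZ over CP (1.61, 1.52 to 1.70) and 11.4 against 7.40 for CP over V/SVZ (1.53, 1.44 to 1.63). The intervals treat peaks as independent, although peaks cluster along a chromosome. The control tables stop at a lowest fold, 11.5 for V/SVZ and 14.7 for CP, and fewer of the numbered peaks were listed at the ends (84.4 to 84.6% in V/SVZ, 67.7 to 68.1% in CP) than in the rest (89.3% and 77.1%). With the unlisted numbered peaks counted, the ratio was 1.61 in V/SVZ and 1.60 to 1.61 in CP.

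The zone of dense peaks did not reach the last megabase, and it extended beyond 5 Mb. In V/SVZ the density was 18.5 control peaks per Mb over the last 1 Mb, 24.1 from 1 to 2 Mb, 35.3 from 2 to 3 Mb and 42.7 at its highest, from 7 to 8 Mb. In CP it was 20.9, 23.7, 32.3 and, again from 7 to 8 Mb, 39.4. Both fell off only slowly further in, to 26.2 and 24.99 per Mb at 20 to 30 Mb, and to 18.02 and 18.8 over the remainder of the chromosomes. The subtelomeric windows were therefore sparser than the 5 Mb next to them, by a ratio of 0.828 (0.789 to 0.870) in V/SVZ and 0.864 (0.821 to 0.909) in CP. The raised density is thus not particular to the terminal 5 Mb. The peaks nearest the 5 Mb line were CP control peaks of 7 tags on chromosome 14 and 20 tags on chromosome 5 just inside it, and a CP control peak of 15 tags in Camta1 and a V/SVZ control peak of 6 tags on chromosome 16 just outside.

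**Figure D1:**
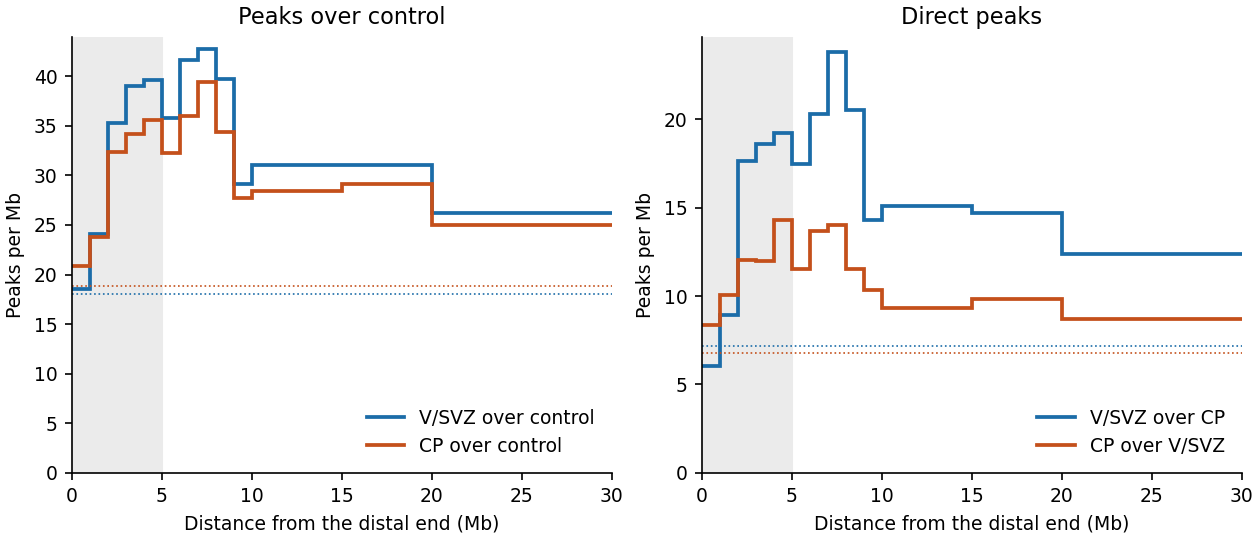
Peaks per Mb (y axis) against distance from the distal end in Mb (x axis), over chromosomes 1 to 19, for the control lists (left) and the direct lists (right) of each tissue. The grey band marks the 5 Mb window and the dotted lines the density beyond 30 Mb; the control lists rise from 18.5 and 20.9 per Mb in the last 1 Mb to 42.7 and 39.4 at 7 to 8 Mb.

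The last 2 Mb also differed from the DNA next to it in which tissue the direct peaks favoured. Over the last 2 Mb the CP over V/SVZ list had 350 peaks and the opposite list 285, a ratio of 1.23 (1.05 to 1.44), against 1891 and 2885 from 2 to 10 Mb, a ratio of 0.656 (0.618 to 0.695). A lean to CP was not particular to the distal tip. The first 5 Mb of peaks at the opposite, proximal end held 843 and 725, a ratio of 1.16 (1.05 to 1.29). All DNA outside the distal 5 Mb held 17170 and 20305, a ratio of 0.846. CP over V/SVZ peaks outnumbered the opposite list in the last 2 Mb of 11 of 19 chromosomes, and from 2 to 10 Mb in 2 of 19. The median CP to V/SVZ tag ratio at peaks shared 1 to 1 was 2.00 (538 pairs) in the last 2 Mb and 1.67 (3363 pairs) from 2 to 10 Mb, and it was the higher of these values on 15 chromosomes. In the last 1 Mb alone it was 2.08 (245 pairs). Control density was lower in the last 2 Mb than from 2 to 10 Mb on 16 of 19 chromosomes in each tissue. Without the 5 sparse ends described next, which were singled out after their values were seen, the direct peak ratio was 1.12 (0.946 to 1.32) in the last 2 Mb and 0.638 from 2 to 10 Mb, and the median tag ratios were 1.90 and 1.67.

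Chromosome ends were of differing kinds. On 14 of 19 chromosomes the subtelomeric window was denser in control peaks than the rest in both tissues, most of all on chromosome 4 (2.91 times in V/SVZ, 2.38 times in CP). On chromosomes 3, 12, 13, 17 and 18 it was sparser in both, down to a ratio of 0.276 in V/SVZ on chromosome 17 and 0.383 in CP on chromosome 13. When each chromosome was cut into 5 Mb windows from its distal end (473 in all), the distal window was the densest of its chromosome on 2 of 19, chromosomes 9 and 11. It ranked past the middle of its chromosome's windows, from the densest down, on 5. Chromosome 4 had 341 V/SVZ and 274 CP control peaks in its window, chromosome 13 only 31 and 37.

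At the 5 sparse ends direct peaks of both lists were sparser than in the rest of the same chromosome. The density ratio was 0.32 to 0.83 for CP over V/SVZ and 0.10 to 0.34 for V/SVZ over CP. The balance there leaned to CP, with 110 CP over V/SVZ peaks and 49 of the opposite list, a ratio of 2.24 (1.59 to 3.21). The other 14 ends held 969 and 1289, a ratio of 0.752 (0.691 to 0.818). The median tag ratio at shared peaks was 2.33 (155 pairs) at the sparse ends and 1.73 (1653 pairs) at the others, beside 1.82 in the rest of the chromosomes of either set. Chromosome 18 had 24 CP over V/SVZ peaks against 4, chromosome 3 had 20 against 6, chromosome 12 had 29 against 14, and chromosome 17 had 26 against 12. Chromosome 13 was the exception, with 11 against 13 and a median tag ratio of 1.30 (20 pairs). At the sparse ends 79.8% of V/SVZ and 82.0% of CP control peaks had no transcript within 10 kb, against 35.8% and 37.9% at the other ends. The other 115 windows of the sparsest class ran from 3.6 to 25.2 control peaks per Mb, the ends from 13.6 to 22.4. Those 115 windows held 2180 peaks of CP over V/SVZ against 1606 of the opposite list (1.36), a lower ratio than at the ends in the same direction, and the median of their window medians of the tag ratio was 2.07, beside 2.41 for the 5 ends. At the ends, false discovery as deposited by the authors was 100% for all CP over V/SVZ peaks and 25.2 to 89.9% for V/SVZ over CP.

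**Figure D2:**
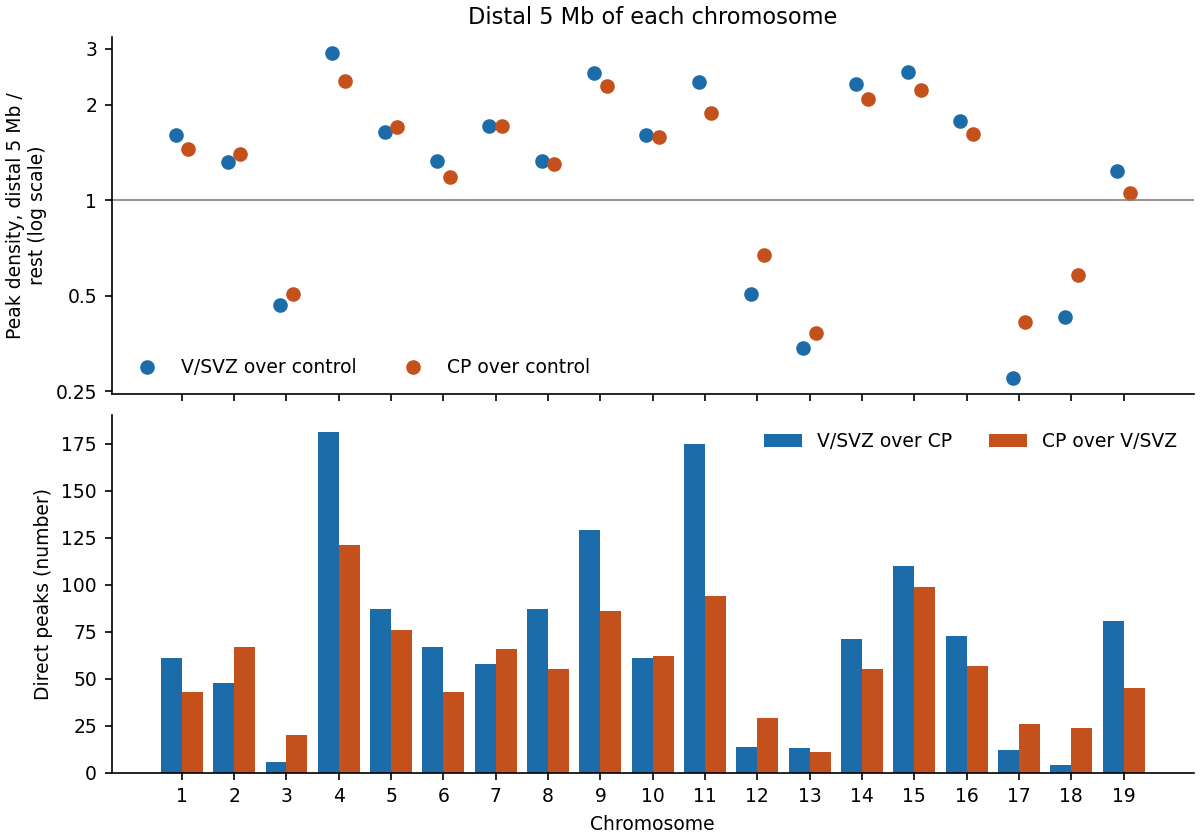
Top, density of control peaks in the distal 5 Mb divided by that in the rest of the same chromosome (y axis, log scale) for chromosomes 1 to 19 (x axis); the line marks 1. Bottom, number of direct peaks in the distal 5 Mb; chromosomes 3, 12, 13, 17 and 18 lie below 1 at the top and have few direct peaks, which on 4 of these 5 are mostly CP over V/SVZ.

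**Figure D3:**
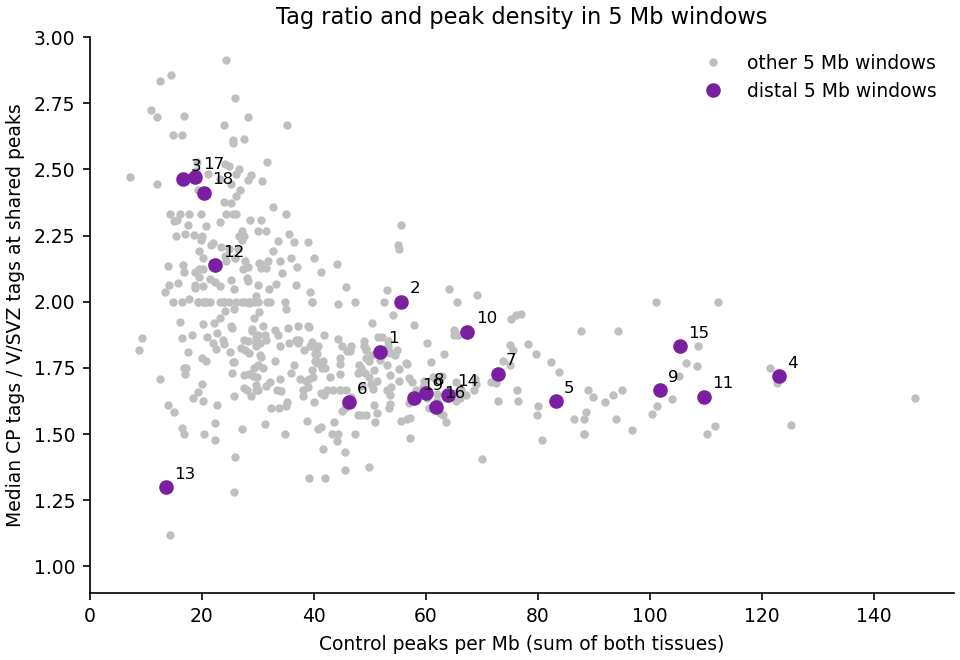
Median CP to V/SVZ tag ratio at shared peaks (y axis) against control peaks per Mb summed over the tissues (x axis) in 5 Mb windows with at least 10 shared peaks; purple points are the distal windows, labelled with their chromosome, and grey points all other windows. Distal windows lie within the cloud of the others, with chromosomes 3, 17 and 18 high among sparse windows and chromosome 13 low at 1.30.

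Subtelomeric peaks were shared between the tissues slightly less often than others in V/SVZ and slightly more often in CP. Of the V/SVZ control peaks, 1826 of 2973 met a CP control peak over 1 bp or more (61.4%, Wilson 59.7 to 63.1%), against 64.1% over all chromosomes together. Of the CP control peaks, 1823 of 2788 overlapped a V/SVZ peak (65.4%, 63.6 to 67.1%), against 63.4%. The V/SVZ direction turned with a 2 Mb window, to 67.1% (63.8 to 70.3%), and the CP share was then 63.8% (60.5 to 67.0%), near its background. Among the more significant peaks the CP share was 63.35%, but the share over all chromosomes in that setting is not given here. A direct peak higher in V/SVZ lay in 1073 V/SVZ control peaks (36.1%), beside 36.3% over all chromosomes, and one higher in CP in 741 CP control peaks (26.6%), beside 27.6%. Both pooled shares are near their background. They differed between ends: at the 5 sparse ends they were 24.7% in V/SVZ and 39.5% in CP, and in the last 2 Mb 29.8% (26.7 to 33.0%) and 29.9%. The median tag ratio at shared peaks was 1.76 (1808 pairs), against 1.82 (30289 pairs) in the rest. The sizes of peaks differed little: the median V/SVZ control peak was 366 bp long with 12 tags (353 bp and 11 in the rest), and the median CP control peak 384 bp long with 19 tags (376 bp and 17). CP control peaks of 100 tags or more made up 6.74% of the subtelomeric list and 5.16% of the rest.

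Pooled over all ends, subtelomeric peaks lay nearer to genes, but the ends differed. In V/SVZ 48.7% of control peaks were inside a transcript (Wilson 46.9 to 50.5%), against 44.5% in the rest, and in CP 44.8% (42.9 to 46.6%), against 40.3%. Correspondingly, 38.7% and 42.0% had no transcript within 10 kb, against 45.1% and 48.9%. At the 5 sparse ends this share went the other way, at 79.8% in V/SVZ and 82.0% in CP. Among the other ends the V/SVZ share ran from 20.7% on chromosome 7 to 58.45% on chromosome 5. Promoter peaks, those over the start or the whole of a transcript or within 1 kb upstream, numbered 39 in V/SVZ (1.31%, 0.961 to 1.79%, against 1.06% in the rest) and 49 in CP (1.76%, 1.33 to 2.32%, against 1.10%). Among direct peaks, 25 of CP over V/SVZ were at promoters (2.32%, 1.57 to 3.40%, against 1.32%) and 6 of V/SVZ over CP (0.448%, 0.206 to 0.975%, against 0.724%). The V/SVZ intervals include the value of the rest, and the CP intervals do not. For control peaks both calls changed with the setting: with a 10 Mb window the CP share was 1.21% (0.967 to 1.52%), and with a 2 Mb window the V/SVZ share was 1.98% (1.22 to 3.19%). Among the more significant peaks the V/SVZ share was 2.01% (1.41 to 2.85%), but the share of the rest in that setting is not given here.

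Of the germ cell gene list, Sycp2 and Tdrd1 had a promoter peak in both tissues, each with a tag ratio above the median of 1.82. The promoter of Sycp2, part of the meiotic synaptonemal complex (chromosome 2, 178141646 to 178142755, mm9), had 76 V/SVZ tags and 283 CP tags, a ratio of 3.72 (2.88 to 4.86). That of Tdrd1, a Tudor domain protein of the piRNA pathway (chromosome 19, 56900499 to 56901175), held 44 and 236, a ratio of 5.36 (3.87 to 7.58) and the highest of the promoters listed in both tissues that are plotted by gene. Tex19.1, Syce1 and Gtsf1 are not in the list and were named by their tags. Tex19.1, which restrains transposons in germ cells, had 30 and 112 tags (3.73) at 0.811 Mb from the end of chromosome 11. Syce1, of the synaptonemal complex, had 64 and 149 (2.33), and Gtsf1, a piRNA pathway factor 0.0915 Mb from the end of chromosome 15, had 56 and 76 (1.36, 0.948 to 1.95). The median ratio at promoter peaks shared by the tissues was 2.26 at the ends (38 pairs) and 2.15 in the rest (400 pairs), so that Gtsf1 lay below it, Syce1 close to it and the others above. Of the germ cell gene list, 3 of 31 genes with a control peak were subtelomeric (9.68%, beside 6.01% of all 12631 genes): Sycp2, Tdrd1 and Nanos1, an RNA-binding regulator of germ cells whose largest peak, at 6522 bp downstream of it, went the other way with 51 V/SVZ and 19 CP tags (0.373).

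Other promoter peaks with many tags belonged to genes of varied function. Fscn2, a retinal actin-bundling protein on chromosome 11, had the most CP tags among promoters listed in both tissues, 288 beside 101 V/SVZ tags (2.85, 2.27 to 3.61). Tmprss12, a transmembrane serine protease gene, had 100 and 232 (2.32). The POU factor gene Pou6f1 had a V/SVZ promoter peak of 82 tags; the CP control peak over it, of 191 tags (2.33), is not annotated as a promoter peak. Csf2ra, the receptor alpha chain for the cytokine GM-CSF, lay 0.02996 Mb from the end of chromosome 19 with 56 and 172 tags (3.07, 2.26 to 4.23). Krt72, a hair follicle keratin, had 64 and 197 (3.08, 2.31 to 4.15). Around it, a keratin cluster on chromosome 15 (101173495 to 101829447), singled out after its values were seen, had 21 genes with subtelomeric control peaks and 40 V/SVZ and 39 CP control peaks, with promoter peaks at 7 genes in V/SVZ and 9 in CP, beside 40 of all 708 and 50 of all 716 subtelomeric genes. The promoter of Gm7120, at the very end of chromosome 13, had the largest CP promoter peak, of 582 tags, and no listed V/SVZ control peak. The direct CP over V/SVZ list held the same 582 tags there.

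**Figure D4:**
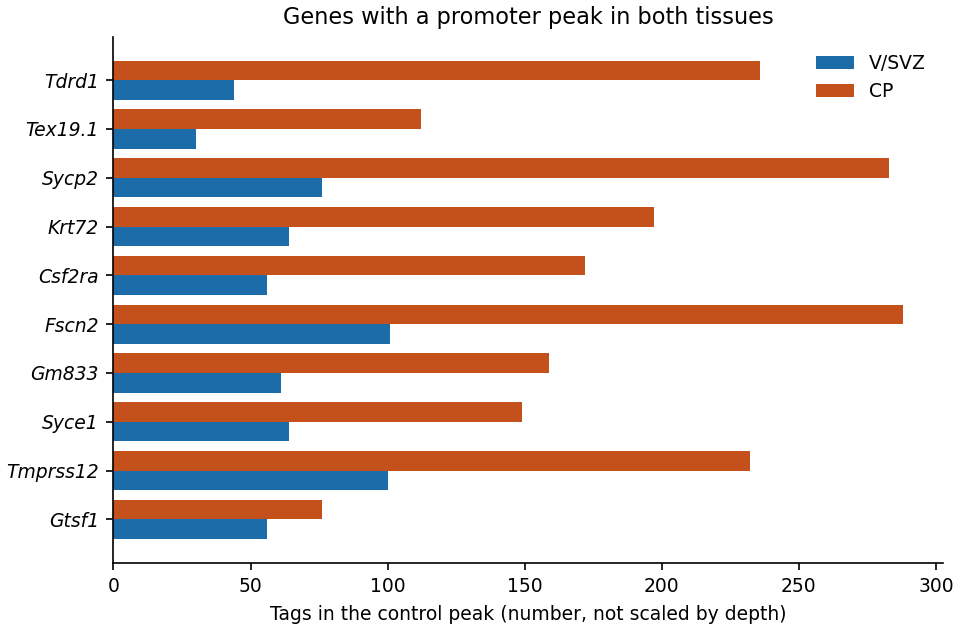
Tags in the control peak (x axis, number of reads, not scaled by depth) at the 10 promoters, from the named promoter peaks with the most tags, that have a promoter peak in both tissues, ordered by CP to V/SVZ ratio from Gtsf1 (1.36) up to Tdrd1 (5.36). Each gene has 1 bar per tissue, and CP tags exceed V/SVZ tags at the genes plotted; of all 38 shared subtelomeric promoter peaks, 1 had a ratio under 1.

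A few genes held many peaks each. In V/SVZ 708 genes had a control peak within 5 Mb of an end, in CP 716, and 665 genes had one in both. Camta1, a calmodulin-binding transcription activator that crosses the 5 Mb line on chromosome 4, had 40 V/SVZ and 29 CP control peaks inside it, and 29 direct peaks higher in V/SVZ against 9 higher in CP. D11Bwg0517e on chromosome 11 had 30 and 22 control peaks, and 18 against 9 direct peaks. Itpr2, an endoplasmic reticulum calcium channel, had 20 and 12 control peaks and 17 against 2 direct peaks; Hlcs, which attaches biotin to carboxylases, had 19 and 6, and 15 against 5. Cdh4, a classical cadherin, had 18 and 15, and 12 against 4, while Farp1, a guanine exchange factor of the FERM family, had 19 and 14, and 8 against 4. Not all leaned to V/SVZ: Prdm16, a transcriptional regulator of neural stem cells, had 18 and 15 control peaks and 7 direct peaks higher in V/SVZ against 12 higher in CP, and Pcnxl2 had 13 and 17, and 6 against 8. Dock9 had 14 and 14, and 8 against 4. All ends together held 1338 direct peaks higher in V/SVZ and 1079 higher in CP. Itpr2, Hlcs and Farp1 were named by their V/SVZ peak number alone, and Prdm16, Pcnxl2 and Dock9 by their CP peak number alone. The lean of these genes is therefore not independent of how they were picked. The peaks of Camta1 were small, with a median of 13.5 tags in V/SVZ and 15 in CP.

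Most of the subtelomeric peaks with the most tags were listed in both tissues. The largest, on chromosome 9 at 2.88 Mb from the end with no transcript within 10 kb, had 518 V/SVZ tags and 774 CP tags (1.49, 1.34 to 1.67). A peak upstream of Fmnl3, a formin that shapes actin, held 418 and 740 (1.77). A peak in Cth, the cystathionine gamma-lyase gene, held 233 and 404 (1.73), and a peak in R3hdm2 held 285 and 354 (1.24). A peak by Cdk4, a cell cycle kinase, held 202 and 451 (2.23, 1.89 to 2.65). Dock9, a Cdc42 exchange factor, was the only one of those named with fewer tags in CP, with 390 V/SVZ and 259 CP tags (0.664, 0.565 to 0.779). The chromosome 9, Fmnl3, Cth, R3hdm2 and Dock9 peaks lie below the median ratio of 1.82. Those of chromosome 9, R3hdm2 and Dock9 are in the V/SVZ over CP list, and those of Fmnl3 and Cth are not. A peak of 332 V/SVZ tags in Rps6kc1, a kinase-like gene, had no listed CP control peak. Between the CP peaks on either side, 1 CP peak number is missing from the list, which stops at a fold of 14.7. The V/SVZ fold of this peak, 12.04, does not give the fold that a CP peak there would have. Its neighbour in the same gene held 245 and 300 tags (1.22).

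By the authors' significance score, the most significant direct peaks within a control peak lay in genes of varied function and between genes. False discovery as deposited was still 25.2 to 36.0% for the V/SVZ over CP peaks named here. It was 100% for those of CP over V/SVZ, Tdrd1 included. In V/SVZ over CP the genes were Dock9, Rptor, a subunit of the growth kinase complex mTORC1 (67 V/SVZ and 18 CP tags, 0.269), Camta1 (37 V/SVZ tags), Tbc1d16, a Rab GTPase regulator (33), Cdh4 (22) and Disc1, a neurodevelopmental scaffold (16), the last 4 with no listed CP control peak. In CP over V/SVZ, Tdrd1 came first, and the next on the list, on chromosome 19 at 57776425, had 29 CP tags and no listed V/SVZ control peak. Further peaks with no transcript within 10 kb lay on chromosome 1, 0.0167 Mb from the end (17 and 149 tags, 8.76, 5.29 to 15.5), on chromosome 1 at 0.117 Mb (47 CP tags, no listed V/SVZ control peak) and on chromosome 6 (11 and 115, 10.5, 5.63 to 21.5). Lars2, the mitochondrial leucyl-tRNA synthetase gene, had 57 and 246 tags (4.32, 3.22 to 5.86). A peak of 24 CP tags by Ptk6 and Srms, tyrosine kinase genes, and one of 19 by Agt, the angiotensinogen gene, had no listed V/SVZ control peak.

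The chromosome 7 end carries an imprinted cluster, where the parental copies differ in methylation, and all 9 subtelomeric genes of the imprinted list lay in it. They were 9 of the 32 listed genes with a control peak (28.1%, beside 6.01% of all genes), a share set by that single cluster. Igf2, a fetal growth factor, had its largest peak 6475 bp upstream with 64 V/SVZ and 160 CP tags (2.50). H19, a noncoding RNA gene, had 31 and 38 (1.23). A peak 2494 bp upstream of Phlda2, a growth-restraining gene, had 6 and 28 (4.67), and the same peak is counted for Nap1l4. In Kcnq1, a potassium channel gene, a peak held 136 V/SVZ tags with no listed CP control peak and 3 CP numbers missing between its neighbours. A peak with no annotated transcript at 150644941 to 150647537 held 261 V/SVZ tags and no listed CP control peak, while the direct CP over V/SVZ peak over it held 867 CP tags, so CP tags were present where no CP control peak is listed. Across 13 shared peaks of the list the median ratio was 1.62, beside 1.75 for all subtelomeric peaks near genes (1106 pairs).

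Genes of neural signalling were spread over several ends. Of the neuronal ion channels and receptors, 18 of 82 were subtelomeric (22.0%), with a median ratio of 1.62 over 72 shared peaks. Of the 18, 14 had a direct peak higher in V/SVZ and 13 one higher in CP, beside 54.0% and 62.2% of all subtelomeric genes. The 18 genes, of 759 subtelomeric genes, held 72 of the 1106 shared peaks near genes, and the shares are not adjusted for the number of peaks per gene. Scn8a, a neuronal sodium channel, had its largest peak at 86 V/SVZ and 287 CP tags (3.34), and Chrna4, a nicotinic receptor subunit, at 103 and 207 (2.01). A peak 966 bp downstream of Kcnh3, a potassium channel gene, had 75 and 179 (2.39). Of the neural transcription factors, 7 of 39 were subtelomeric, with a median of 1.76 over 38 pairs. Among them Prdm16 had a peak of 57 and 162 tags (2.84), Trp73, a p53 relative needed for Cajal-Retzius neurons, one of 33 and 121 (3.67), and Ski, a TGF-beta corepressor, one of 80 V/SVZ tags with no listed CP control peak and 1 CP number missing there.

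Of the lists with shared peaks, adhesion genes had the lowest median tag ratio. Of 75 genes of axon guidance and adhesion, 6 were subtelomeric (8%), with a median ratio of 1.19 over 21 shared peaks, and all 6 had a peak in each direct list, beside 54.0% (V/SVZ over CP) and 62.2% (CP over V/SVZ) of all subtelomeric genes. These 6 genes, of 759 subtelomeric genes, held 21 of the 1106 shared peaks near genes. Their control peaks were uneven, with 18 in V/SVZ and 15 in CP for Cdh4 but 4 and 2 for Plxna2. How the 21 divide among the genes is not given here, and the median has no interval. A gene with more peaks has more chances of a direct peak, and the shares are not adjusted for this. Cdh4 had 45 and 90 tags at its largest peak (2.00), Negr1, a neuronal adhesion molecule, 9 and 50 (5.56), and Dscam, an adhesion molecule of neurite avoidance, 20 and 36 (1.8). Shank2, a synaptic scaffold, had 33 and 36 (1.09), and Plxna2, a semaphorin receptor, 12 and 12. Agrn, the synapse organiser agrin, had a peak of 90 V/SVZ tags with no listed CP control peak, where 5 CP numbers are missing.

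Smaller lists had few members at the ends. The Wnt and Notch lists gave 7 of 45 genes, with a median ratio of 2.08 over 6 pairs. The largest peak of Hes3, a Notch-related repressor, lay 5631 bp downstream of it, with 118 and 305 tags (2.58). That of Wnt1, a secreted ligand, lay 1542 bp downstream, with 40 and 63 (1.58). That of Hes5, a Notch target, lay 5447 bp upstream, with 32 and 31 (0.969). Dvl1, a Wnt signal transducer, had a peak of 162 V/SVZ tags with no listed CP control peak and 5 CP numbers missing. Polycomb genes gave 3 of 18, among them Cbx2, a chromodomain subunit on chromosome 11, in which a peak held 107 and 276 tags (2.58). FGF genes gave 3 of 17: Fgf14, a sodium channel regulator, with 29 and 116 tags (4), and the ligands Fgf3 and Fgf4. Fgf3 had 23 and 68 (2.96), and a peak 1014 bp upstream of Fgf4 had 13 and 30 (2.31). Telomere maintenance genes gave 1 of 18, the helicase Rtel1 with 7 CP tags and no listed V/SVZ control peak.

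The last control peak of a chromosome had no transcript within 10 kb on 12 of 19 chromosomes, and its tags ran from 6 to 582 with a median of 19. On chromosomes 2, 5, 11 and 17 it held 10, 6, 8 and 9 tags and was listed in 1 tissue. At the end of chromosome 12 it held 13 V/SVZ and 85 CP tags (6.54, 3.63 to 12.8), at that of chromosome 18 it held 26 and 92 (3.54), and at that of chromosome 19 it held 51 and 92 (1.804). Genes at the very end included Bicd1, a dynein adaptor on chromosome 6 (24 and 68 tags, 2.83), Mrgprd, a sensory neuron receptor on chromosome 7 (27 and 37, 1.37), Vmn2r87, a vomeronasal receptor on chromosome 10 (20 and 43, 2.15), and Pde1b, a phosphodiesterase by the last peak of chromosome 15 (6 and 8, 1.33). On chromosome 8 the last peak lay in 1700008F21Rik with 16 V/SVZ tags. On chromosome 4 the last peak lay upstream of Plekhn1 with 117 V/SVZ tags and no listed CP control peak.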

How the data were processed

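DNA of the V/SVZ and CP of ICR embryos (embryonic day 16) was enriched for methylation and sequenced, with 1 library per tissue, per the labels' protocols. Per the submitters' processing notes, CASAVA 1.8 and Bowtie were used, with build mm9; the Bowtie version is not given in the sources used here. The column names are those of the MACS peak caller, per the file headers. In the deposited tables, tags are a read count, significance is a score of the authors, fold is the authors' ratio of a peak to its local expectation, false discovery is the authors' percent, and length and distance are in bp, per the file headers. The deposited control tables end after 65535 lines at a lowest fold of 11.48 (V/SVZ) and 14.71 (CP), so weaker peaks are not analysed here, and a peak without a partner is written as having no listed control peak.

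Each peak was counted once per table, with Python 3.11.15, pandas 2.3.3 and scipy 1.17.1. Peak density was counted per Mb between the lowest and highest peak of each chromosome (95 Mb subtelomeric, 2319 Mb elsewhere). Shares carry Wilson 95% intervals and ratios exact binomial 95% intervals, which treat reads as independent molecules. Reads may not be, since the sources name no molecular identifiers by which copies of the same molecule could be recognised. Overlap was counted from 1 bp, and tag ratios came from peaks overlapping exactly 1 peak of the other tissue. Unlisted peaks were counted from the peak numbers, which follow genomic order. The scripts were tested on simulated data. Genes were named by fixed ranks: most tags, most peaks, promoter peaks, most significant direct peaks, the last peak of each chromosome, members of gene lists, and the peaks at the 5 Mb line. The regions and gene lists were chosen with earlier results of these data known. Some list members are not reported here.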

Additional observations from a re-analysis of the deposited data

How the results depend on the processing

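No paired analysis was possible because each tissue has a single library. Of 74 values recomputed under alternatives, 31 moved less than their counting interval, 37 moved and 6 reversed; the numbered peaks and the mean over chromosomes were chosen after seeing the data. The density ratios below are given for V/SVZ control, CP control, V/SVZ over CP and CP over V/SVZ. Against the next 5 Mb all 4 reversed, to 0.828, 0.864, 0.730 and 0.929, the last with an interval of 0.854 to 1.01, which includes equal density. With a 2 Mb window they were 1.01, 1.06, 0.834 (reversed) and 1.22, and with a 10 Mb window 1.74, 1.57, 2.01 and 1.64. Against the proximal 5 Mb the last 3 were 1.34, 1.85 and 1.28. Without chromosome 4 the first 3 were 1.44, 1.35 and 1.48. Counting numbered peaks gave 1.61 (fewest and most) in V/SVZ and 1.60 to 1.61 in CP. Direct peaks within a control peak gave 1.51 and 1.36, and the more significant CP over V/SVZ peaks 1.43.

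CP over V/SVZ peaks per V/SVZ over CP peak reversed to 1.23 with 2 Mb, and moved to 0.707 with 10 Mb and 0.691 within control peaks. The shared share of V/SVZ peaks was 67.1% with 2 Mb, and that of CP peaks 63.35% with the more significant peaks. Direct calls were 29.8% and 29.9% with 2 Mb, 38.1% and 24.9% with 10 Mb, and 19.4% and 14.9% with the more significant peaks. The median tag ratio was 2.00, 1.70 and 1.87 in these settings, and the promoter share 1.98% with 2 Mb (V/SVZ), 1.21% with 10 Mb (CP), and 2.01% and 2.66% with the more significant peaks. Shares and tag ratios of the more significant peaks are given without the value of the rest in the same setting. The cause of these changes was not tested. At a median of 12 and 19 tags, the depth of a peak gives wide intervals for single ratios.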
